A study of Mus musculus with 6 samples.

Results

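The amino acid transporter families examined here comprised 63 genes of the Slc1, Slc3, Slc6, Slc7, Slc36, Slc38 and Slc43 families, out of 24704 named genes measured. They were taken by gene symbol alone, as every probe set of the array whose platform symbol began with one of these family names and a number. Slc6a6, Slc6a12 and Slc38a2, which are known NFAT5 targets, were left out of the 66 matching symbols. Of the 63 members, 59 are transporter or transporter-related genes and 4 (Slc7a6os, Slc6a19os, Slc36a1os and Slc36a3os) are genes named for lying on the opposite strand of a transporter gene. Each member had 1 probe set.

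Solute carriers of these families move amino acids and related small molecules across membranes. Some act alone at the cell surface, some need a heavy chain partner to reach it, and some sit on the lysosome, where they export amino acids or report them to the growth kinase complex mTORC1. In the lung, endothelium takes up arginine, the substrate of nitric oxide synthase, and airway and alveolar epithelium take up amino acids from the lining fluid. NFAT5 is a transcription factor known for responding to osmotic stress, in which cells accumulate organic solutes partly through transporters of these families.

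RNA came from whole lungs of mice held in hypoxia for 7 days. The 3 knockout arrays (Nfat5(EC)-/-, replicates 1, 3 and 4) came from mice in which Nfat5 was ablated in endothelial cells by tamoxifen, 1 mg per day on 5 days, given into the peritoneum. The 3 control arrays (Nfat5fl/fl, replicates 1, 3 and 4) came from mice that carried the floxed gene and received the solvent miglyol, so effects of the genotype and of tamoxifen cannot be told apart. The mice were of both sexes, 10 to 12 weeks old at induction and rested for 2 to 3 weeks, and their lungs were perfused with cold Ringer solution. The labels name neither the promoter that drives the recombinase, nor whether controls carried it, nor the sex of each animal. The authors left out preparations with contaminating tissue or an inadequate response to hypoxia, so the arrays were in part chosen on expression. The labels do not say that each array is a separate animal, so p-values measure the spread between these arrays.

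Values are log2 expression after robust multi-array averaging (RMA), so 1 unit is a 2-fold difference, and levels of different genes are not compared because probe sets differ in brightness. Every array had the same lower quartile, 2.02, over all probe sets. There were no detection calls, so a gene below 2.02 in both groups may not have been measured above background. Array profiles correlated at 0.92 to 0.94 among knockouts, 0.83 to 0.92 between knockouts and controls and 0.97 among controls, across genes, which are not independent replicates. Nfat5 itself stood at 4.46, 4.48 and 3.89 on the knockout arrays, against 6.65, 6.58 and 6.30 on the control arrays. The median of the small nucleolar RNA probe sets was 7.43, 6.49 and 6.43 on the knockout arrays, against 4.01, 4.20 and 4.15 on the control arrays, and its part in the results below was not tested. In whole lung, fewer cells of a type cannot be told apart from less RNA per cell.

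Across the families, transporters moved in both directions and no family moved as a block. With limma and Benjamini-Hochberg adjustment over all 24704 genes at a threshold of 0.05, 8 members were higher in the knockout, 11 were lower and 44 did not pass. That was 19 of 63 members (30.2%), near the background of 25.5% of all genes (12.5% higher and 13% lower). Over the members the log2 fold change had a median of 0.07, and over all genes of 0.04. Other Slc genes outside these families and the 3 left-out genes were higher at 35 and lower at 34 of 276. Knockout and control arrays did not overlap at 29 members, 17 with the knockouts higher and 12 with them lower, where 41.9% of all genes had groups that did not overlap (21.9% with the knockouts higher and 20% with them lower).

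**Figure D1:**
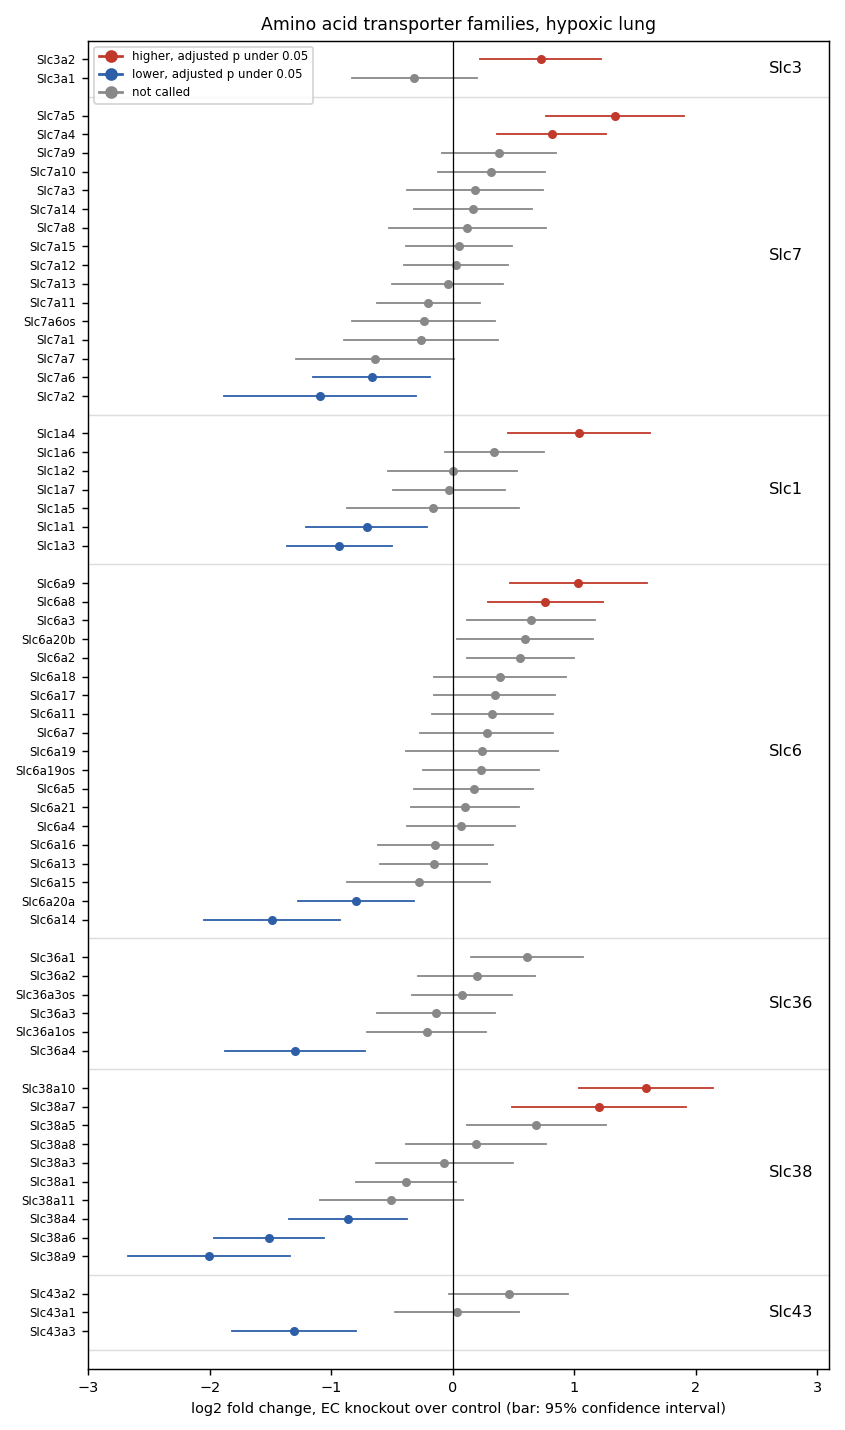
Log2 fold change of knockout over control for all 63 members, grouped by family, with limma's 95% confidence interval as bars. Red points are the 8 members that were higher and blue points the 11 that were lower at an adjusted p under 0.05, and the Slc38 family spans the widest range, from −2.01 for Slc38a9 to 1.59 for Slc38a10.

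The widest changes were in the Slc38 family, the sodium-coupled neutral amino acid transporters, where 2 of 10 rose and 3 fell. Slc38a9, the lysosomal arginine sensor that signals to mTORC1, had the largest fold change of all members. Its log2 value was 2.83, 3.99 and 3.01 on the knockout arrays, against 5.25, 5.29 and 5.32 on the control arrays. Knockout array 3 was less low than the others, and all 3 knockouts lay below all controls, which lay within 0.06 units of each other. The log2 fold change was −2.01 ± 0.30 (SE, n = 3 per group; limma, adjusted p = 0.0029), a 4.02-fold fall. Slc38a7, which exports glutamine from lysosomes, went the other way, at 5.31, 5.10 and 6.32 on the knockout arrays, against 4.11, 4.48 and 4.54 on the control arrays. Knockout array 4 was the highest and no control reached the lowest knockout. Slc38a7 rose by 1.20 ± 0.32 (adjusted p = 0.024).

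Slc38a10, a member whose transport role is less well known, had the largest rise of the 63, at 6.08, 5.70 and 6.26 on the knockout arrays, against 4.04, 4.70 and 4.54 on the control arrays. The groups were 1.00 unit apart at their nearest arrays, and the log2 fold change was 1.59 ± 0.24 (adjusted p = 0.0032). Slc38a6, long listed as an orphan of the family, stood at 3.02, 2.90 and 3.23 on the knockout arrays, against 4.79, 4.41 and 4.50 on the control arrays. All knockouts lay below all controls, with a log2 fold change of −1.52 ± 0.20 and the smallest adjusted p among the members, 0.0023. Slc38a4, a system A transporter whose gene is imprinted in mouse, lay between 2.89 and 2.94 on knockout arrays and between 3.43 and 4.08 on control arrays, and fell by 0.86 (adjusted p = 0.019). The calls of Slc38a9, Slc38a10 and Slc38a6 held in all 16 alternative fits. That of Slc38a7 was lost without control array 1 (adjusted p = 0.099), 3 (0.072) or 4 (0.054). That of Slc38a4 was lost without control array 3 (0.077) or 4 (0.070) or with the gene length trend removed (−0.57, 0.088). With that trend removed, Slc38a9 shrank to −1.66 and Slc38a6 to −1.18, while Slc38a10 stood at 1.82.

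The remaining Slc38 transporters did not pass. Slc38a1, a system A transporter that imports glutamine, was at −0.38 (95% confidence interval −0.80 to 0.03, adjusted p = 0.16), with knockouts at 4.69 to 4.80 and controls at 5.02 to 5.30, groups that did not overlap. Slc38a5, a system N glutamine transporter, was at 0.69 (0.11 to 1.26, adjusted p = 0.078), again with no overlap, and passed without knockout array 1 (0.94, adjusted p = 0.015) or with array weights (0.038). Slc38a3, the other system N transporter, was at −0.07 (−0.63 to 0.49). Within each array, the log2 value of Slc38a7 minus that of Slc38a9 was 1.11 to 3.31 on knockout arrays and −1.15 to −0.78 on control arrays. This pair was picked after its values were seen and so was not tested. As probe sets differ in brightness, only its shift between the groups is read, and not its sign.

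**Figure D2:**
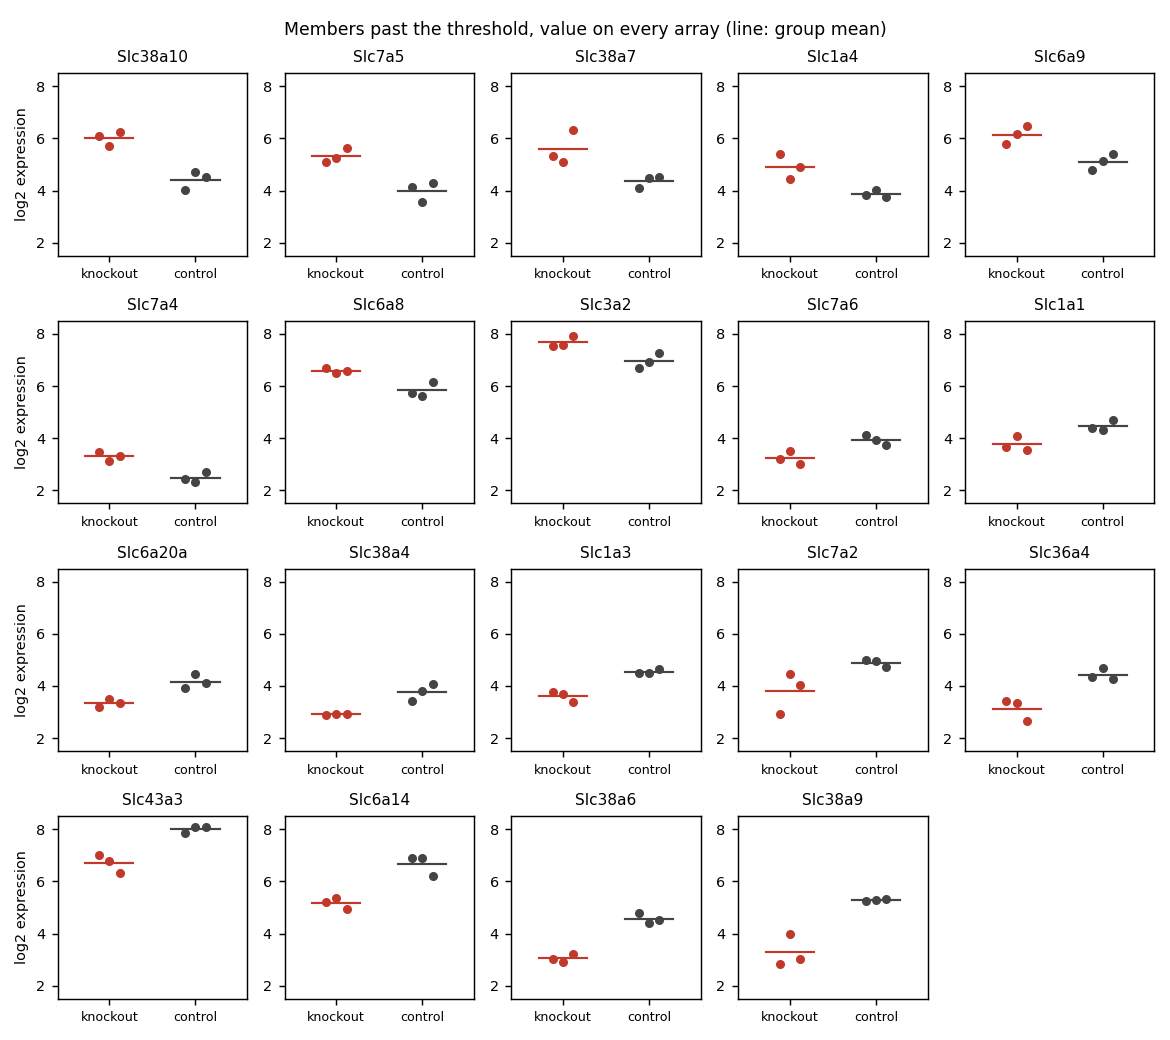
Log2 expression on every array for the 19 members past the threshold, from the largest rise (Slc38a10) to the largest fall (Slc38a9), knockout arrays on the left and control arrays on the right of each panel. Points are arrays and lines are group means, and in each panel the 3 knockout arrays lie wholly above or wholly below the 3 controls.

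The heavy chain Slc3a2 and the leucine carrier Slc7a5, which together form the exchanger CD98-LAT1, both rose. Slc7a5, the light chain that imports leucine and other large neutral amino acids in exchange for glutamine, stood at 5.12, 5.26 and 5.63 on the knockout arrays, against 4.13, 3.55 and 4.31 on the control arrays. The lowest knockout lay above the highest control by 0.81 units, and the log2 fold change was 1.34 ± 0.25 (adjusted p = 0.0065), a 2.53-fold rise that held in all 16 alternative fits. Slc3a2, which carries several light chains to the cell surface, stood at 7.55, 7.58 and 7.92 on the knockout arrays, against 6.69, 6.94 and 7.26 on the control arrays. Its groups did not overlap, but control array 4 came within 0.29 units of the lowest knockout. The rise was 0.72 ± 0.22 (adjusted p = 0.040), and the call was lost without control array 1 (adjusted p = 0.15) or 3 (0.13), without knockout array 3 (0.059) or 4 (0.095), with the length trend removed (0.057) and with Xist as a covariate (0.17).

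Of the other light chains carried by Slc3a2, 1 fell and 4 did not pass. Slc7a6 (y+LAT2), which exports arginine in exchange for neutral amino acids, stood at 3.19, 3.53 and 3.03 on the knockout arrays, against 4.11, 3.91 and 3.72 on the control arrays. Every knockout lay below every control, by 0.19 units at the nearest arrays, and the log2 fold change was −0.67 ± 0.21 (adjusted p = 0.047). The call was lost in 10 of 16 alternative fits, among them those without control array 1 (adjusted p = 0.16), 3 (0.14) or 4 (0.069) and without knockout array 1 (0.083) or 4 (0.11). Its close relative Slc7a7 (y+LAT1), known in macrophages, was at −0.64 (−1.29 to 0.01, adjusted p = 0.14) with overlapping groups, passed without knockout array 4 (−0.95, adjusted p = 0.023) and shrank to −0.38 without knockout array 1 (0.33). Slc7a8, a second large neutral amino acid carrier, was at 0.12 (−0.52 to 0.76), and Slc7a10, which exchanges alanine and serine, at 0.32 (−0.12 to 0.76). The cystine importer Slc7a11 was at −0.20 (−0.63 to 0.22) and lay below 2.02 on all 6 arrays (1.55 to 1.79 on knockouts and 1.72 to 2.00 on controls), where a change could have been missed. Within each array, the log2 value of Slc7a5 minus that of Slc7a6 was 1.73 to 2.60 on knockout arrays and −0.36 to 0.58 on control arrays. This pair too was picked after its values were seen, and only its shift between the groups is read. The heavy chain Slc3a1 and its partner Slc7a9, best known from kidney, did not pass.

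Of the cationic amino acid transporters, Slc7a2 fell and the main arginine importer Slc7a1 did not pass. Slc7a2, an arginine importer that macrophages and other cells induce, stood at 2.94, 4.44 and 4.02 on the knockout arrays, against 4.98, 4.96 and 4.74 on the control arrays. Knockout array 1 was 1.08 units below the next knockout, and all 3 lay below the controls. The log2 fold change was −1.09 ± 0.35 (adjusted p = 0.048), and it shrank to −0.66 without knockout array 1 (adjusted p = 0.057). The call was also lost without control array 1 (0.14), 3 (0.14) or 4 (0.093), or without knockout array 4 (0.062), and with the length trend removed (0.11). Slc7a1 was at −0.26 (−0.89 to 0.37, adjusted p = 0.55), knockout array 3 at 2.99 lying below all others. Slc7a4, a related protein with no established substrate, stood at 3.48, 3.13 and 3.30 on the knockout arrays, against 2.43, 2.33 and 2.71 on the control arrays. It rose by 0.81 ± 0.20 (adjusted p = 0.018), and its call was lost without control array 1 (0.073) or 3 (0.085) and with the length trend removed, where the fold change was 0.53 (0.077).

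The Slc1 family holds the glutamate transporters and the neutral amino acid exchangers ASCT1 and ASCT2. In it 1 exchanger rose and 2 glutamate transporters fell. Slc1a4 (ASCT1), an exchanger of alanine, serine and cysteine, stood at 5.40, 4.44 and 4.90 on the knockout arrays, against 3.85, 4.01 and 3.77 on the control arrays. No control reached the lowest knockout, and the rise was 1.04 ± 0.26 (adjusted p = 0.019). The glutamine exchanger Slc1a5 (ASCT2) was at −0.17 (−0.87 to 0.54, adjusted p = 0.75), and its knockout arrays spread from 5.03 to 6.24 around the controls' 5.53 to 6.15. Slc1a3 (GLAST), a glutamate transporter, stood at 3.77, 3.68 and 3.39 on the knockout arrays, against 4.49, 4.50 and 4.66 on the control arrays. Its groups lay 0.72 units apart at the nearest arrays, and the log2 fold change of −0.93 ± 0.19 (adjusted p = 0.0091) held in all 16 alternative fits, at −0.60 with the length trend removed (0.049). The glutamate transporter Slc1a1 (EAAC1), which also takes up cysteine, stood at 3.65, 4.09 and 3.54 on the knockout arrays, against 4.41, 4.31 and 4.70 on the control arrays. It fell by 0.71 ± 0.22 on the log2 scale (adjusted p = 0.044). That call was lost in 10 of 16 alternative fits, among them those without control array 1 (0.11), 3 (0.091) or 4 (0.14) or without knockout array 1 (0.084) or 4 (0.10), and its fold change shrank to −0.37 with the length trend removed (0.24). The call of Slc1a4 was lost without control array 1 (0.072), 3 (0.058) or 4 (0.065). The other 3 glutamate transporters, Slc1a2, Slc1a6 and Slc1a7, did not pass.

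Slc6 is the family of sodium- and chloride-dependent transporters of neurotransmitters, creatine and amino acids, and 2 of its 19 members rose while 2 fell. Slc6a14 (ATB0,+), a concentrating transporter of neutral and cationic amino acids known in airway epithelium, stood at 5.21, 5.37 and 4.94 on the knockout arrays, against 6.89, 6.90 and 6.20 on the control arrays. Every knockout was at least 0.83 units below every control, and the log2 fold change was −1.49 ± 0.25 (adjusted p = 0.0041), a 2.81-fold fall that held in all 16 alternative fits. Slc6a14 lies on the X chromosome, and control array 1, the only array with high Xist (8.22, against 2.03 to 2.28 on knockouts and 2.36 to 2.37 on the other controls), stood at 6.89 beside 6.90 and 6.20 on the other controls. The Y-linked gene Kdm5d stood at 1.96 to 2.16 on knockouts, 1.57 on control array 1 and 4.02 and 3.94 on control arrays 3 and 4. Eif2s3y, also Y-linked, stood at 2.66 to 3.97 on knockouts, 1.63 on control array 1 and 4.80 and 4.59 on control arrays 3 and 4. The values of these 3 genes do not settle the sex of the knockout arrays. The call of Slc6a14 held without control array 1 and with Xist as a covariate. Beyond those fits, the part of sex in the Slc6a14 result was not tested. Slc6a20a, a proline and imino acid transporter, stood at 3.20, 3.52 and 3.34 on the knockout arrays, against 3.91, 4.45 and 4.10 on the control arrays. It fell by 0.80 ± 0.21 on the log2 scale (adjusted p = 0.024), and the call was lost without control array 3 (0.11) or 4 (0.062) or with the length trend removed (0.060). Its neighbour and near relative on chromosome 9, Slc6a20b, was at 0.59 (0.03 to 1.15, adjusted p = 0.12), with knockouts at 3.06 to 3.45 and controls at 2.13 to 2.87. Because these genes are similar in sequence, their probes may share signal, so both values are uncertain.

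The glycine transporter and the creatine transporter were the 2 members of Slc6 that rose. Slc6a9 (GlyT1) stood at 5.77, 6.16 and 6.46 on the knockout arrays, against 4.78, 5.12 and 5.40 on the control arrays. No arrays overlapped between the groups, and the rise was 1.03 ± 0.25 (adjusted p = 0.017). Slc6a8, which imports creatine and is X-linked, stood at 6.71, 6.49 and 6.59 on the knockout arrays, against 5.74, 5.60 and 6.16 on the control arrays. The rise was 0.76 ± 0.21 (adjusted p = 0.028). Both calls were lost without control array 1 (adjusted p = 0.076 for Slc6a9 and 0.10 for Slc6a8) or 3 (0.064 and 0.12). That of Slc6a8 was also lost without knockout array 1 (0.056) or 4 (0.0504) and with the length trend removed (0.54, adjusted p = 0.086).

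None of the 3 monoamine transporters passed. Slc6a4, the serotonin transporter studied in pulmonary hypertension, was at 0.07 (−0.38 to 0.51, adjusted p = 0.85). Slc6a2, the noradrenaline transporter, was at 0.56 (0.12 to 1.00, adjusted p = 0.066) and the dopamine transporter Slc6a3 at 0.64 (adjusted p = 0.074), both with knockouts above controls on every array. With the length trend removed Slc6a2 passed (0.75, adjusted p = 0.020), and alternative fits of Slc6a3 are not given here.

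In the Slc36 family, which moves small amino acids together with protons, Slc36a4 fell and no other member passed. Slc36a4, a high-affinity transporter of proline and tryptophan, stood at 3.42, 3.33 and 2.64 on the knockout arrays, against 4.34, 4.69 and 4.25 on the control arrays. Knockout array 4 was the lowest, and the lowest control lay 0.82 units above the highest knockout. The log2 fold change was −1.30 ± 0.25 (adjusted p = 0.0077) and held in all 16 alternative fits. Slc36a1 (PAT1), which exports amino acids from lysosomes, was at 0.61 (0.15 to 1.07, adjusted p = 0.056), with knockouts at 5.14 to 5.61 and controls at 4.68 to 4.96. It passed without knockout array 1 (adjusted p = 0.027), with the length trend removed (0.028) and with array weights (0.037). Slc36a2, a glycine and proline transporter known as a surface marker of brown fat cells, was at 0.20 (−0.28 to 0.68). The opposite-strand genes Slc36a1os and Slc36a3os lay below 2.02 in both group means and did not pass, nor did Slc7a6os and Slc6a19os.

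The facilitative Slc43 family has 3 members, of which Slc43a3, described as a transporter of purine nucleobases, fell. Slc43a3 stood at 7.00, 6.79 and 6.31 on the knockout arrays, against 7.85, 8.08 and 8.08 on the control arrays. All controls were within 0.23 units of each other and at least 0.85 units above the highest knockout. The log2 fold change was −1.31 ± 0.23 (adjusted p = 0.0048), a 2.47-fold fall that held in all 16 alternative fits. The leucine transporters Slc43a1 (LAT3, at 0.04, −0.48 to 0.55) and Slc43a2 (LAT4, at 0.46, −0.03 to 0.95) did not pass. Slc43a2 was at 0.30 without control array 1 and passed with the length trend removed (0.70, adjusted p = 0.049).

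Of the 3 NFAT5 targets that were left out, the glutamine importer Slc38a2 fell by 1.12 ± 0.28 on the log2 scale (adjusted p = 0.020), a call lost without control array 1 (0.079) or 3 (0.081). The taurine transporter Slc6a6 (−0.28 ± 0.24) and the betaine transporter Slc6a12 (0.28 ± 0.18) did not pass.

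Promoter windows are shown for 4 members. The lysosomal transporters Slc38a7, Slc36a1 and Slc38a9 were taken because they parted in direction or size. Slc1a4 was taken because its window alone, among the 5 higher members that had one, held an amino acid response element. Windows span 250 bases before to 50 after a RefSeq gene start (GRCm38.p6), 5′ to 3′ along the gene, and 47 of the 63 members had at least 1. Those 47 comprised 5 higher members, 9 lower and 33 that did not pass. Capitals mark matches on either strand to 3 motifs: TGGAAA, the core of the element NFAT5 binds; TGATGNAAN, an amino acid response element; and CACGTG, the E-box read by MYC and by the lysosomal regulator TFEB.
Slc1a4 (chr11:20332664-20332963, minus strand): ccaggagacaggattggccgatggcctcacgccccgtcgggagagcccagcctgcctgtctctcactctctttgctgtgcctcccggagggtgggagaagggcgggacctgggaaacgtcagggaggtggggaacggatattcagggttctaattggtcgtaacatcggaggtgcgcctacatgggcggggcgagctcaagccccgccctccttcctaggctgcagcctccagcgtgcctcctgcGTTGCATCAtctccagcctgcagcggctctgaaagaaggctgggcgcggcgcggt
Slc38a7 (chr8:95853442-95853741, minus strand): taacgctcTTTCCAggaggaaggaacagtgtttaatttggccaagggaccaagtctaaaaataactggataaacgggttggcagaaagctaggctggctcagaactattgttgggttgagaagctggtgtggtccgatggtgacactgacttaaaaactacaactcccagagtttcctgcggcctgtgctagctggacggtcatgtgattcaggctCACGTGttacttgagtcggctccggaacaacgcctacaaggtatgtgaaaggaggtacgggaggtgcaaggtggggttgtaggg
Slc36a1 (chr11:55204090-55204389, plus strand): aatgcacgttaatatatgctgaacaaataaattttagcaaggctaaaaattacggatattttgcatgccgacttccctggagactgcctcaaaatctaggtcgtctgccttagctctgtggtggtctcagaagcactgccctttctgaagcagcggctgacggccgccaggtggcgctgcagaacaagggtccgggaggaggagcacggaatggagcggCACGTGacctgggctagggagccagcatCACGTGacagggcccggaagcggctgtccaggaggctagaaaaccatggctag
Slc38a9 (chr13:112660516-112660815, plus strand): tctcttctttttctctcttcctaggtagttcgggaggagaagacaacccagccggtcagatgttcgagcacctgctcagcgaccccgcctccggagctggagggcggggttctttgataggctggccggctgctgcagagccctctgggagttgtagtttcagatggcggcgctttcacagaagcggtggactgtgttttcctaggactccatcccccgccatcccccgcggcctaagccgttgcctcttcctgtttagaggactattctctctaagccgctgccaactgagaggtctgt

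TGGAAA was in 13 of 64 member windows (20.3%), against 21.43% of all 32851 windows. Its 11 genes comprised 1 higher member (Slc38a7), 2 lower (Slc38a4 and Slc38a6) and 8 that did not pass, so the letters were about as common here as elsewhere. In 1 window of Slc38a4, matches on the 2 strands abut. TGATGNAAN was in 5 member windows (7.8%), against 3.95% of all windows, in Slc1a4, which was higher, and in Slc6a21, Slc7a7 and Slc7a11, which did not pass. CACGTG was in 9 member windows (14.1%), against 7.15% of all windows, in Slc38a7, which was higher, and in 8 members that did not pass, among them Slc36a1 with 2 copies. No match in the window of Slc38a9 says only that these letters are not in these 300 bases. Its window begins at 112660516, inside the RefSeq gene span that begins at 112656189, so the outermost start was not searched. A match is a description of letters and not of binding.

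Lower members were on the whole longer genes than higher members. Gene span, from start to end with introns, had a median of 22.1 kb (4.87 to 47.4 kb) over the 8 higher members, 59.7 kb (22.0 to 82.6 kb) over the 11 lower and 35.3 kb over the 40 transporters that did not pass. All protein-coding genes were split into 5 equal bins by span. In the longest bin, over 60.6 kb, 5 of 12 transporters were lower and 0 higher, beside 31.5% lower and 5.41% higher of all genes there. In the bin of 26.3 to 60.6 kb, which held the most transporters, 4 of 28 were higher and 5 lower, beside 10.4% higher and 23.6% lower of all genes. In the bin of 12.9 to 26.3 kb, 2 of 14 were higher and 1 lower, beside 15.1% higher and 12.3% lower of all genes. In the bin of 4.79 to 12.9 kb, 2 of 5 were higher and 0 lower, beside 20.7% higher and 5.66% lower of all genes. The median log2 fold change of the transporters, from that bin to the longest, was 0.69, 0.21, 0.09 and −0.32, beside 0.22, 0.06, −0.14 and −0.33 over all genes, so the medians differed in sign between 26.3 and 60.6 kb. The part of gene span in the transporter results was not tested beyond the fit that follows. With that trend removed from every array, 11 of the 19 calls held in direction and threshold.

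**Figure D3:**
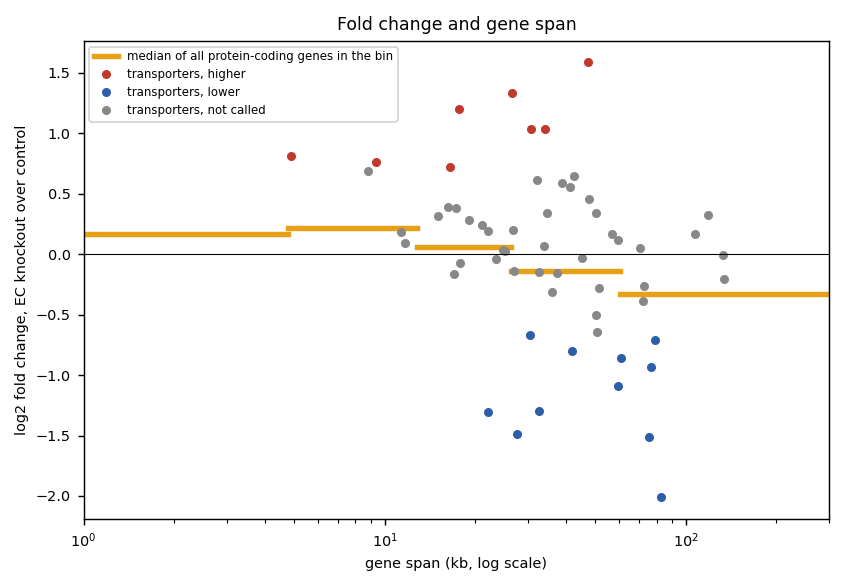
Log2 fold change of knockout over control against gene span in kb (log axis) for the 59 transporters, with yellow bars at the median of all protein-coding genes in each of 5 span bins. The bars step down from 0.22 in the bin of 4.79 to 12.9 kb to −0.33 in the longest bin, the outermost bars run past the axis, and the 8 higher members (red) span at most 47.4 kb.

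Counts in lists of other genes that handle or sense amino acids are read against the same background, 12.5% of all genes higher and 13% lower, and a median log2 fold change of 0.04. Of 16 amino acid and peptide transporters of other families, 1 rose and 1 fell (6.25% each), the log2 fold changes having 0.30 as their median. The peptide transporter Slc15a2 was at −1.25 ± 0.36 (adjusted p = 0.033), lost without control array 1 (0.088), 3 (0.11) or 4 (0.092), and its fold change was −0.79 without knockout array 1. The aromatic amino acid transporter Slc16a10 was at 0.72 ± 0.23 (adjusted p = 0.049), lost in each fit without 1 array except that without knockout array 3 (adjusted p up to 0.16). The lysosomal cysteine transporter Mfsd12 did not pass (0.92 ± 0.30, adjusted p = 0.053), but did without knockout array 1 (0.0063).

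Among 32 genes of amino acid sensing by mTORC1, the pathway that Slc38a9 feeds, 4 rose (12.5%) and 5 fell (15.6%), shares near the background, and the median log2 fold change was 0.03. Fnip1 and Fnip2, partners of folliculin in activating the Rag GTPases, were at −1.69 ± 0.35 (adjusted p = 0.0089) and −0.89 ± 0.20 (0.013). Mios, a subunit of GATOR2, was at −0.84 ± 0.19 (0.013). Without control array 3 the calls of Fnip2 (adjusted p = 0.060) and Mios (0.068) were lost, and with the length trend removed Fnip2 shrank to −0.52 (0.10). Rheb, the GTPase that activates mTORC1, and Sesn3, a relative of the leucine sensor Sesn2, fell too, at −0.74 ± 0.19 (adjusted p = 0.019) and −1.01 ± 0.26 (0.022). The 4 that rose were folliculin itself, Flcn (0.88 ± 0.25, adjusted p = 0.029), Sesn2 (0.99 ± 0.25, 0.022), Lamtor1 (0.88 ± 0.24, 0.029) and Nprl2 (0.67 ± 0.21, 0.046). These 6 were named after their values were seen. Without control array 1 or 3 the calls of Rheb (0.079 and 0.082) and Sesn3 (0.067 and 0.078) were lost, and that of Sesn3 also without control array 4 (0.069) or knockout array 4 (0.052). All 4 rises lost the call without any 1 of the 3 control arrays (adjusted p up to 0.12 for Flcn, 0.088 for Sesn2, 0.11 for Lamtor1 and 0.14 for Nprl2) and without knockout array 4. Flcn and Nprl2 also lost it without knockout array 1 (0.065 and 0.098), and Sesn2 and Lamtor1 without knockout array 3 (0.055 and 0.077). With the length trend removed the calls of Nprl2 (0.38, adjusted p = 0.22), Lamtor1 (0.61, 0.092) and Rheb (−0.55, 0.052) were lost. No test linked these values to Slc38a9.

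A list of the amino acid response around ATF4 had 14 measured genes. Of them 4 were higher (28.6%, beside 12.5% of all genes) and 3 lower (21.4%, beside 13%), and their median log2 fold change was 0.36. Cebpb, a transcription factor, rose by 1.46 ± 0.20 (adjusted p = 0.0024) and the serine hydroxymethyltransferase Shmt2 by 1.64 ± 0.25 (0.0031), while the lipoprotein receptor Vldlr fell by 1.53 ± 0.30 on the log2 scale (0.0079). Also past the threshold were Sesn2, given above, and Ddit3 (0.67 ± 0.20, 0.038), both higher. Asns (−1.01 ± 0.20, 0.0086) and Eif2ak4 (−0.80 ± 0.25, 0.043) were lower. Atf4 itself did not pass (0.36 ± 0.20, 0.23). Ddit3, Asns, Eif2ak4 and Atf4 were named after their values were seen, and their alternative fits are not given here. Of 19 cytosolic tRNA synthetases, which load amino acids onto tRNA, 3 rose (15.8%, beside 12.5% of all genes) and 4 fell (21.1%, beside 13%), and the median log2 fold change was −0.15. The leucine enzyme Lars was at −2.05 ± 0.28 (adjusted p = 0.0025), the valine enzyme Vars at 1.47 ± 0.23 (0.0033) and the arginine enzyme Rars at −1.16 ± 0.24 (0.0096).

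Mean levels of several lists of lung cell type markers differed between the groups too. Rises and falls in these small lists are read against 12.5% of all genes higher and 13% lower. Shares higher and lower were 40% and 50% for endothelial, 12.5% and 25% for alveolar type 2 and 14.3% and 28.6% for macrophage markers. They were 16.7% and 33.3% for ciliated and club cell and 0% and 33.3% for brown fat markers. The mean log2 value of 10 endothelial markers, of which 4 rose and 5 fell, was 7.14 to 7.39 on knockout arrays and 7.56 to 7.71 on control arrays. That of 8 alveolar type 2 markers (1 rose, 2 fell) was 8.73 to 9.17 on knockout arrays and 9.25 to 9.39 on control arrays. Over 7 measured macrophage markers (1 rose, 2 fell) it was 4.44 to 4.93 on knockout arrays and 5.24 to 5.68 on control arrays. Slc7a2 fell beside that mean, but the marker Car4 rose by 0.63 (adjusted p = 0.047), and 3 of the 7 fold changes were positive. Over 6 ciliated and club cell markers (1 rose, 2 fell) the mean was 6.93 to 7.36 on knockout arrays and 7.54 to 7.72 on control arrays. The airway transporter Slc6a14 fell beside that mean. But Foxj1, the marker of smallest p in that list, rose by 1.59 (adjusted p = 0.0018), and 2 of the 6 fold changes were positive. Over 6 brown fat markers (0 rose, 2 fell) the mean was 2.78 to 3.23 on knockout arrays and 3.57 to 4.57 on control arrays, with control array 1 the highest. The macrophage and brown fat lists share 1 gene, Fabp4. In each of these 5 lists, and in the fibroblast and mast cell lists, the knockout arrays lay below the control arrays, while the ranges overlapped for the alveolar type 1, smooth muscle, T cell, B cell, thymus, platelet and neuron lists, and the part of cell make-up in the transporter results was not tested.

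**Figure D4:**
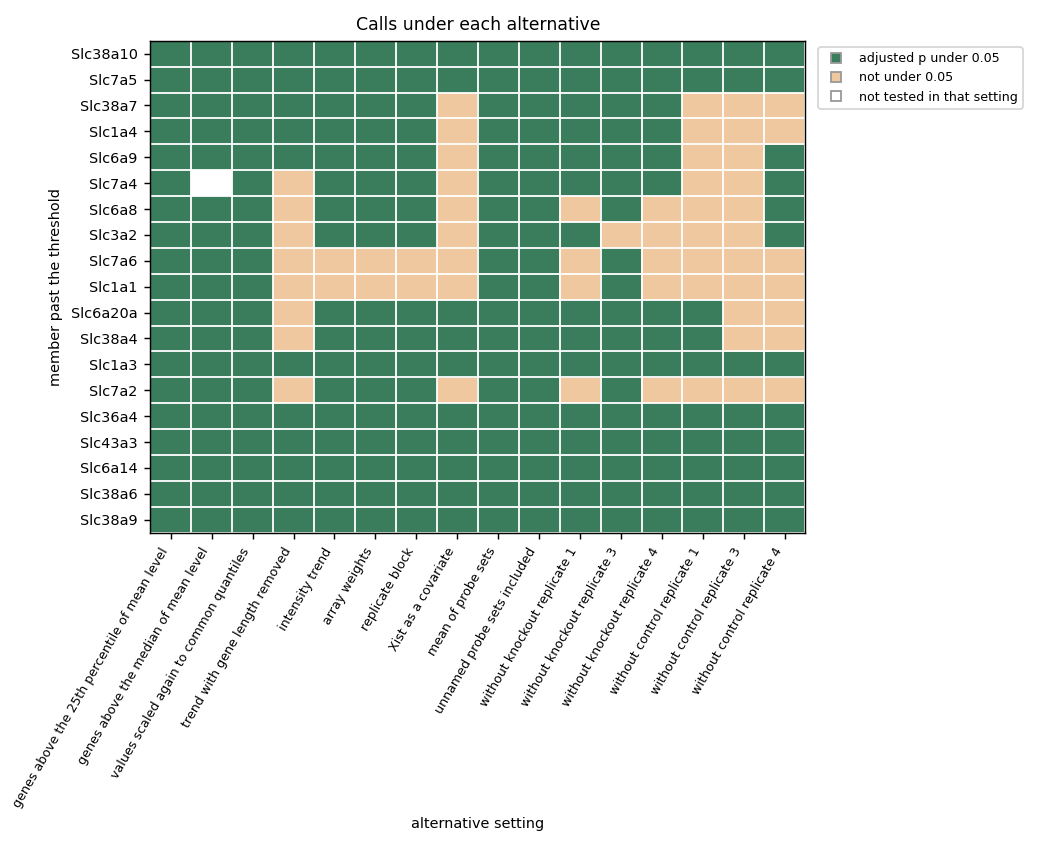
Calls of the 19 members past the threshold under 16 alternative fits, from the largest rise at the top to the largest fall at the bottom, green where the adjusted p was under 0.05, orange where it was not and white where the gene was filtered out. Rows without orange are the 8 calls that held throughout, and orange gathers in the columns that leave out a control array, use Xist as a covariate or remove the length trend.

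With Xist as a covariate, the calls of Slc38a7 (adjusted p = 0.11), Slc1a4 (0.080), Slc6a9 (0.086), Slc7a4 (0.081), Slc6a8 (0.11), Slc7a6 (0.18), Slc1a1 (0.12) and Slc7a2 (0.15) were lost beside that of Slc3a2. Sign was kept by every one of the 19 called members in the 16 fits. Their groups did not overlap, so no fit that left out or weighted arrays could have changed a sign. Level filters leave a fold change as it is, so they could not either. Slc38a10 and Slc7a5 among the higher members and Slc38a9, Slc38a6, Slc6a14, Slc43a3, Slc36a4 and Slc1a3 among the lower kept their calls throughout. The other 11 calls were each lost in at least 1 fit that left out an array. Scaling again to common quantiles, averaging probe sets or including unnamed probe sets lost none of the 19 calls. Those fits therefore did not separate firm calls from weak ones. Without control array 1 or control array 3, 2 members (Slc38a10 and Slc7a5) were higher in place of 8. Without control array 3 or 4, 6 were lower in place of 11. Fewer calls in these fits were not particular to the members. Over all genes, too, every fit without 1 array passed fewer than the 6292 of the full fit, as given below.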

How the data were processed

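Whole-lung RNA was hybridised as biotin-labelled cRNA to 6 single-colour Affymetrix arrays. The authors deposited log2 expression per probe set, made with RMA (per the submitters' processing notes, which name no version, probe set definition or build). Quartiles of the deposited columns differed by at most 0.0004 log2 units between arrays. Precision is limited by the number of arrays.

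The platform annotation gives 1 symbol for 24705 of the 25428 probe sets, several for 0 and none for 723. Where probe sets shared a symbol, that with the higher mean entered the fit, giving 24704 genes with no filter on dim ones. RefSeq (GRCm38.p6) supplied biotype and span through Entrez identifiers for 24673 probe sets, and promoter sequence. Knockout and control arrays were compared with limma 3.58.1 in R 4.3.3 (lmFit, eBayes), with Benjamini-Hochberg adjustment over all genes. Errors of fold changes are moderated standard errors.

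Members, lists and alternatives were chosen with earlier results of these data known. Members past the threshold and 25 members preset for the lung were named, and the 3 of smallest p in each pathway list. Symbols of tRNA synthetases were matched through RefSeq synonyms. Alternatives covered filters, scaling, gene length (lowess, span 0.3, protein-coding genes), intensity trend, array weights, replicate block, Xist, thresholds, probe sets and leaving out each array. The fit was tested on simulated data.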

Additional observations from a re-analysis of the deposited data

How the results depend on the processing

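Among all genes 6292 passed, 2827 with Xist as a covariate and 2560 at an adjusted p under 0.01. Leaving out 1 array gave 2882 (without control replicate 3) to 6155 (without knockout replicate 3) genes. Higher members numbered 8, and 9 with the length trend removed. They numbered 2 with Xist as a covariate or at an adjusted p under 0.01, and lay between 2 and 9 when 1 array was left out. Lower members numbered 11, and 6 with the length trend removed or at an adjusted p under 0.01, and lay between 6 and 12 when 1 array was left out. Control replicates 1 and 3 moved the higher count most. Xist was high on control replicate 1 alone, so that covariate nearly repeats leaving the array out. With the replicate number as a block, 8 members were higher, 9 lower and 6082 genes passed, and the calls of Slc7a6 (adjusted p = 0.057) and Slc1a1 (0.073) were lost and that of Mfsd12 (0.044) gained (limma). Same-numbered knockout and control arrays deviated from their group means with correlations of 0.06, −0.01 and 0.0038 across genes, and not every array correlated best with its own number, so the numbers were not taken to pair the arrays. The call of Slc16a10 (0.076) and that of Nprl2 (0.071) were lost too, and the block changed the call of no other named gene. No called member changed sign, though most of these fits could not have changed one. Some genes near 0 that had not passed did change sign. With the length trend removed Slc6a6 stood at 0.057, Slc7a1 at 0.069 and Slc7a11 at 0.18. Slc38a3 stood at 0.055 with array weights, and Slc6a4 at −0.0068 with Xist as a covariate. When 1 array was left out, Slc38a3 ranged from −0.26 (knockout replicate 3) to 0.10 (control replicate 4), Slc6a4 from −0.0024 (control replicate 1) to 0.19 (control replicate 3) and Slc1a5 from −0.46 (knockout replicate 4) to 0.15 (knockout replicate 1). Slc7a1 ranged from −0.48 (knockout replicate 1) to 0.046 (knockout replicate 3), Slc43a1 from −0.14 (knockout replicate 4) to 0.16 (control replicate 4) and Slc7a8 from −0.18 (knockout replicate 4) to 0.33 (knockout replicate 3). The cause of these shifts was not tested. Slc7a4 fell out of the fit limited to genes above the median level, and 10 of the 63 members lay below 2.02 in both groups, where small changes may be missed.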
